A study of Mus musculus with 70 samples.

Results

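The expression of 9 genes that mark naive, memory and regulatory T cells was followed in leukocytes sorted from the blood of mice after chronic social defeat stress. The genes were Tcf7, Lef1 and Il7r for naive cells, Cd44 and Tbx21 for memory and effector cells, and Foxp3, Ctla4, Ikzf2 and Pdcd1 for regulatory cells and checkpoint receptors. The rule that picks them is a list of names and uses no measured value, although the list was drawn up with earlier results of these data known. They are 9 of the 52636 genes in the count table. The mice were C57BL/6J, 7 to 8 weeks old, and had been defeated by aggressive CD-1 mice for 10 days. A social interaction test then divided the defeated mice into susceptible animals (SUS), which avoided another mouse, and resilient animals (RES), which did not, while control mice (CON) were housed in pairs on either side of a partition and never defeated. No transgene, deletion or drug was part of these groups. T cells, B cells and the Ly6Chigh and Ly6Clow fractions of monocytes were sorted from each group by flow cytometry with antibodies against CD11b, Ly6C, Ly6G, B220 and CD90.2, and total RNA was sequenced in bulk. The 68 libraries used were 6 in each of the 12 combinations of cell type and group, except 4 for Ly6Clow monocytes of CON mice and 5 each for B cells and T cells of RES mice. The sample labels give the source as brain, whereas the design text of the series and the methods describe blood.

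T cells leave the thymus as naive cells that recirculate through lymph nodes, and antigen turns them into effector and memory cells. TCF-1 (from Tcf7) and LEF-1 (from Lef1) are related DNA-binding factors that keep naive and memory cells quiescent and able to self-renew, and Il7r encodes the receptor subunit for IL-7, the survival cytokine of resting T cells. CD44 is an adhesion receptor for hyaluronan that stays high on memory T cells and is also abundant on monocytes, and T-bet (from Tbx21) drives the type 1 effector programme in T cells and is used by natural killer (NK) cells as well. Foxp3 defines regulatory T cells, which restrain immune responses. Helios (from Ikzf2) is found in most regulatory cells of thymic origin, CTLA-4 (from Ctla4) takes costimulatory ligands away from other T cells, and PD-1 (from Pdcd1) is an inhibitory receptor of activated and exhausted cells.

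The members lie on 6 chromosomes of mouse build GRCm38 (mm10), and each value below is a single count for the gene, not for a transcript. Tcf7 (ENSMUSG00000000782) is at chr11:52252371-52283014 on the minus strand, Lef1 (ENSMUSG00000027985) at chr3:131110471-131224356 on the plus strand and Il7r (ENSMUSG00000003882) at chr15:9505788-9530176 on the minus strand. Cd44 (ENSMUSG00000005087) is at chr2:102811141-102901665 and Tbx21 (ENSMUSG00000001444) at chr11:97098071-97115331, both on the minus strand. Foxp3 (ENSMUSG00000039521) is at chrX:7573644-7595245 on the plus strand, where its annotation overlaps Ccdc22, Ppp1r3f and Gm36995 on the other strand and Flicr on its own. Ctla4 (ENSMUSG00000026011, plus strand) is at chr1:60887000-60915832, Ikzf2 (ENSMUSG00000025997, minus strand) at chr1:69531214-69687245 with the antisense gene Gm29114 and Gm28112 and Gm29112 on its own strand, and Pdcd1 (ENSMUSG00000026285, minus strand) at chr1:94038305-94052553. The counting option for strand is not given in the sources used here. Tcf7, Lef1, Cd44 and Ctla4 are also overlapped, by A630014C17Rik and Gm26551, Gm42449 and Gm43352, Gm23731, and Rpl18-ps1. These overlaps are between whole gene spans. Whether they touch the reads counted for these 6 members was not tested. The annotation lists no overlap for Il7r, Pdcd1 and Tbx21.

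RefSeq promoter windows, 250 bases that end just before a transcript start, were found for 8 members, 13 windows in all, with no entry for Ikzf2. They were searched on both strands for 5 short motifs: CTTTGA, the core bound by TCF-1 and LEF-1, TAAACA of forkhead factors such as Foxp3, GGTGTG of T-box factors such as T-bet, CCGGAAG of ETS factors and TGTGGT of RUNX factors. No matches overlapped in the windows printed. The windows of Foxp3 and Ctla4 are printed because these members differed most between stressed and control T cells, and those of Lef1 and Tcf7 because their products bind a motif that was searched. Where a gene had several windows, one with a match was printed: the other Foxp3 and Tcf7 windows and 2 further Lef1 windows held no match, and another Lef1 window held a T-box match. Capitals mark the motif matches, and all coordinates are of GRCm38.p6, read 5′ to 3′ on the strand of the gene.
Foxp3, chrX:7579426-7579675, plus strand: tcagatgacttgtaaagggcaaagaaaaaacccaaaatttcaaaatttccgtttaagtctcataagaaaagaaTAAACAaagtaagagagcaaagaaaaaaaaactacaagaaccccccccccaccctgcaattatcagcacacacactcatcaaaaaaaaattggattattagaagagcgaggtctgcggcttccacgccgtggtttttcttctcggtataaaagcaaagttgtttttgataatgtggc
Ctla4, chr1:60908775-60909024, plus strand: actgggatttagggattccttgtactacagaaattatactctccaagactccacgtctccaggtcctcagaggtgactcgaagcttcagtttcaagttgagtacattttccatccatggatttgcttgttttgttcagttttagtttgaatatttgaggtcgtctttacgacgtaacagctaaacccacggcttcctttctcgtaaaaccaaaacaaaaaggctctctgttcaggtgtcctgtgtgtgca
Lef1, chr3:131156044-131156293, plus strand: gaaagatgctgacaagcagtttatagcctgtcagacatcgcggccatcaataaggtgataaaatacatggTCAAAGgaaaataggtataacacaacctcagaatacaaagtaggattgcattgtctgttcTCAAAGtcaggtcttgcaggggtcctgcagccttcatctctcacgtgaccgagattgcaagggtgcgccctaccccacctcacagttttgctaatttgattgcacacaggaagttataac
Tcf7, chr11:52282596-52282845, minus strand: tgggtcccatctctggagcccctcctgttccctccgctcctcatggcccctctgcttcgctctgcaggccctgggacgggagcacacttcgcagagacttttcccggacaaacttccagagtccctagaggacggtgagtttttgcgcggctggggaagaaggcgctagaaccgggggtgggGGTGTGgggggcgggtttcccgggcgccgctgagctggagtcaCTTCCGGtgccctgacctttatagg
Each printed window lies inside the span of its gene given above, before a transcript start within the gene. The Foxp3 window held a forkhead match that begins at base -177 from that start, and the Lef1 window held TCF/LEF matches at -180 and -120. The Tcf7 window held a T-box match at -68 and an ETS match at -25, and the Ctla4 window held none of the 5 motifs. Over 32817 RefSeq windows of the same length, 13.8% held the TCF/LEF letters, 12% the forkhead, 16.3% the T-box, 6.9% the ETS and 14% the RUNX letters. A match is a run of letters and says nothing of binding.

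The sorted fractions carried the markers of their labels. Over the 17 T cell libraries the summed level of 8 T cell markers, Cd3e among them, was 2096 to 3087 CPM (counts divided by the TMM-normalised library size and put on a common scale), against 2.247 to 12.97 CPM in B cells, 0.8135 to 7.016 in Ly6Chigh monocytes and 16.13 to 60.63 in Ly6Clow monocytes. In B cells 6 B cell markers summed to 4967 to 6330 CPM. In Ly6Chigh libraries 6 monocyte markers summed to 20311 to 33756 CPM, and in Ly6Clow libraries 4 Ly6Clow monocyte markers summed to 4035 to 5442, against 575.3 to 1398 in Ly6Chigh libraries. Transcripts of other cells were present as well. Red cell genes, 6 in number, summed to 1335 to 12799 CPM in B cell libraries, and 6 neutrophil markers to 11.78 to 1118 in Ly6Chigh libraries. The Ly6Clow libraries also held 212.7 to 1126 CPM summed over 5 NK cell markers, against 3.805 to 73.08 in T cells. Libraries 52 and 70 went against their labels and were left out of every comparison. Library 52, labelled B cells of a RES mouse, held 412 CPM of Cd3e, the CD3 epsilon chain of T cells, and 5.76 CPM of Cd79a, a B cell receptor subunit. Library 70, labelled T cells of a RES mouse, held 0.143 CPM of Cd3e and 1417 CPM of Cd79a. Total counts over all 70 libraries were 19769835 to 67038231, and no library of a group repeated another. No label tells which libraries came from the same mouse, so all were treated as independent, and p-values measure the spread between libraries.

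T cells of CON mice carried far more Tcf7, Lef1 and Il7r than the other sorted cells, and 8 of the 9 genes were higher in T cells than in B cells. Cd44 ran the other way, with the highest level in monocytes, and the Tbx21 levels of Ly6Clow monocytes and T cells overlapped. Per kilobase of gene model, the order of levels within CON T cells was Tcf7 at 518 RPKM, Il7r at 98.0, Lef1 at 75.5, Cd44 at 11.0, Tbx21 at 7.14, Foxp3 at 5.90, Ikzf2 at 3.27, Pdcd1 at 1.97 and Ctla4 at 1.13. All levels that follow are CPM, which compare 1 gene between samples and not genes with each other. In a bulk fraction, a lower level can mean fewer cells of a type or less RNA per cell, and these cannot be told apart.

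The naive cell genes separated T cells from all other fractions without overlap. The share of all genes that separate these fractions as fully was not counted. Tcf7 had a level of 1359 ± 72.1 CPM in CON T cells (SD, n = 6), and its levels over all libraries were 1141 to 1724 CPM in T cells, 0.5304 to 5.699 in B cells, 0.1474 to 3.635 in Ly6Chigh monocytes and 2.431 to 20.3 in Ly6Clow monocytes. Lef1 had 663 ± 64.7 CPM (SD, n = 6) in CON T cells, and over all libraries 475.3 to 853.5 in T cells, 5.249 to 14.73 in B cells, 0 to 2.004 in Ly6Chigh monocytes and 1.023 to 27.5 in Ly6Clow monocytes. Il7r had 457 ± 50.7 CPM (SD, n = 6) in CON T cells and was at most 2.871 CPM in B cells, 1.351 in Ly6Chigh monocytes and 4.288 in Ly6Clow monocytes. The monocyte fractions also differed from each other, and in CON mice Tcf7, Lef1 and Il7r were lower in Ly6Chigh than in Ly6Clow monocytes by log2 differences of -2.77, -5.55 and -3.84. In the same CON libraries T cell markers summed to 3.356 to 6.577 CPM in Ly6Chigh and 16.13 to 44.52 in Ly6Clow fractions. NK cell markers summed to 2.177 to 32.68 and 212.7 to 737.6 CPM. The part of lymphocyte transcripts in these differences was not tested.

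Cd44 reversed this order. In CON mice it was at 848 ± 84.9 CPM (SD, n = 6) in Ly6Chigh monocytes, 721 ± 59.7 (SD, n = 4) in Ly6Clow monocytes, 74.6 ± 19.4 (SD, n = 6) in T cells and 71.3 ± 8.20 (SD, n = 6) in B cells. The monocyte and lymphocyte ranges did not overlap, since the lowest monocyte library was at 590 CPM and the highest lymphocyte library at 120.8. Here too, the share of all genes without such overlap was not counted. The neighbours in that order did not differ by the test, with a log2 difference of 0.23 between the monocyte fractions (edgeR adjusted p = 0.335) and of 0.07 between T and B cells (adjusted p = 0.805, 95% interval -0.21 to 0.34). Tbx21, the T-bet gene, was at 29.1 ± 8.92 CPM (SD, n = 4) in Ly6Clow monocytes of CON mice, with the 4 libraries at 21.87, 39.86, 21.71 and 33.09, and at 17.8 ± 10.8 (SD, n = 6) in CON T cells. These neighbours overlapped, with a log2 difference of -0.72 for T cells minus Ly6Clow monocytes (SE 0.69, edgeR adjusted p = 0.470, interval -2.10 to 0.67). The Ly6Clow libraries of CON mice also held 212.7 to 737.6 CPM summed over 5 NK cell markers, Ncr1 and Klrb1c among them, against 9.033 to 56.17 in CON T cells, and the part of these transcripts in the Tbx21 level was not tested.

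The regulatory and checkpoint genes also had their highest mean level in T cells. Foxp3 was at 27.0 ± 9.40 CPM (SD, n = 6) in CON T cells, 3.76 ± 0.899 (SD, n = 4) in Ly6Clow monocytes, 3.39 ± 2.20 (SD, n = 6) in Ly6Chigh monocytes and 0 to 3.602 over all B cell libraries. The lowest T cell library, at 17.96 CPM, lay above the highest library of any other cell type, at 7.607, and the share of all genes that do so was not counted. Ikzf2 was at 38.0 ± 8.15 CPM (SD, n = 6) in CON T cells, at 1.315 to 12.96 over all Ly6Clow libraries, at 0 to 5.956 in Ly6Chigh monocytes and at 0 to 1.136 in B cells. Pdcd1, the PD-1 gene, was at 3.80 ± 1.85 CPM (SD, n = 6) in CON T cells and at most 0.7451 CPM in any library of the other cell types. Ctla4 was at 2.62 ± 1.5 CPM (SD, n = 6) in CON T cells, from 42 to 214 reads per library. Outside T cells, CON libraries held 8 reads of Ctla4 in B cells, all in a single library, and 0 in either monocyte fraction. Reads and library sizes were also pooled over each CON group, with 660 reads in T cells and a floor of 3 counts over the other group. The pooled Ctla4 level of T cells was then at least 201-fold that of Ly6Chigh and 137-fold that of Ly6Clow monocytes. The ratio of pooled levels to B cells was 68.0 with a counting interval of 34.3 to 158. These bounds cover counting error only and not the spread between libraries. From the edgeR fit, which includes that spread, the lower 95% limits of the log2 differences were 5.97 against Ly6Chigh monocytes, 5.22 against Ly6Clow monocytes and 2.93 against B cells.

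**Figure D1:**
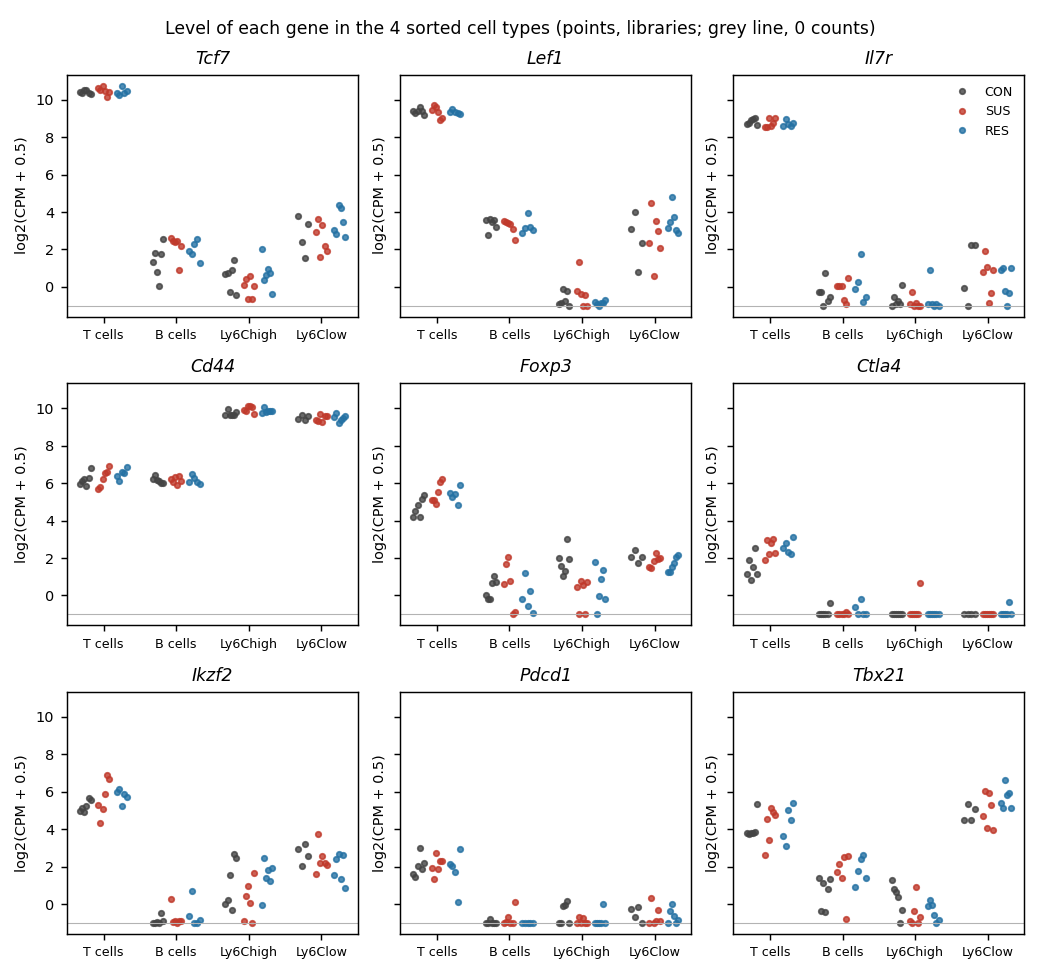
Level of each member, as log2 of TMM-normalised CPM plus 0.5, in the 4 sorted cell types, with each point a library of CON, SUS or RES mice and a grey line at 0 counts. The T cell points of Tcf7, Lef1 and Il7r stand apart from all others, whereas Cd44 is highest in both monocyte fractions and Tbx21 overlaps between T cells and Ly6Clow monocytes.

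Genes were called different where the edgeR adjusted p was under 0.05 and the log2 fold change was beyond 1 in either direction. Of 24248 genes tested in CON mice, 11.2% were called higher in T cells than in B cells and 8.82% lower, while 8 of the 9 members were called higher and Cd44 was not called. The log2 fold changes of T over B cells were 9.10 for Tcf7, 6.06 for Lef1, 10.36 for Il7r, 5.01 for Foxp3, 9.62 for Ikzf2 and 3.78 for Tbx21. That of Ikzf2 (SE 1.07, interval 7.49 to 11.76) rests on 9 reads over all CON B cell libraries, 3 of which held none. Against Ly6Chigh monocytes, 16.5% of genes were called higher in T cells and 15.9% higher in the monocytes, with 8 members higher and Cd44 lower at -3.51 (SE 0.15). Against Ly6Clow monocytes the shares were 11.9% and 15.2%, with 7 members higher, Cd44 lower at -3.27 and Tbx21 not called. The call of Pdcd1 in that comparison (4.12) was lost without any single one of libraries 21, 24, 32 and 62, at adjusted p from 0.0550 to 0.0919, and with libraries 52 and 70 kept the calls of Pdcd1 and Ikzf2 were lost, at adjusted p = 0.0652 and 0.0861. Foxp3 was higher in T cells by 2.99 and 2.84 log2 units against the Ly6Chigh and Ly6Clow fractions, far less than Tcf7 at 10.28 and 7.5. Between B cells and Ly6Chigh monocytes, 15.1% of genes were called higher in B cells and 17.2% higher in the monocytes, with Tcf7 and Lef1 higher and Cd44, Foxp3, Ikzf2 and Pdcd1 lower in B cells, of which Tcf7 and Foxp3 lost the call with libraries 52 and 70 kept (adjusted p = 0.322 and 0.0778). Between B cells and Ly6Clow monocytes, 11.8% were called higher in B cells and 17.0% higher in the monocytes, with 7 members lower in B cells, of which Tcf7, Il7r, Foxp3 and Pdcd1 lost the call with those libraries kept (adjusted p from 0.0812 to 0.204), which left 3. Between Ly6Chigh and Ly6Clow monocytes, 4.08% were called higher in the first and 6.52% higher in the second, with Tcf7, Lef1, Il7r and Tbx21 lower in Ly6Chigh cells, of which Tcf7 and Il7r lost the call in the same way (adjusted p = 0.0511 and 0.0672), which left 2.

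In T cells, the naive cell genes of stressed and control mice overlapped, and none was called. Tcf7 levels were 1268 to 1457 CPM with a median of 1334 in CON mice and 1141 to 1724 with a median of 1428 in SUS mice, and 1302, 1237, 1686, 1301 and 1417 in the 5 RES libraries. Of the SUS libraries 2 lay above and 1 below every control, as did 1 and 1 of the RES libraries, and the log2 fold changes were 0.08 (SE 0.09, interval -0.11 to 0.27) for SUS and 0.03 (SE 0.10, interval -0.18 to 0.23) for RES. Lef1, its partner factor, was at 582.6 to 773.5 CPM with a median of 664.5 in CON, 475.3 to 853.5 with a median of 675.4 in SUS, and 636, 716.6, 659.4, 626.3 and 602.6 in RES libraries. Of the SUS libraries 1 lay above and 2 below every control, while the RES libraries lay within the control range, and the fold changes were -0.01 (SE 0.11, interval -0.25 to 0.22) for SUS and -0.04 (SE 0.12, interval -0.28 to 0.21) for RES. Il7r was at 399.2 to 526.4 CPM with a median of 452.5 in CON, 376.4 to 527.3 with a median of 406.6 in SUS, and 387.8, 499.3, 410.7, 389.4 and 436.7 in RES libraries. Of the SUS libraries 1 lay above and 3 below every control, and 2 of 5 RES libraries lay below, with fold changes of -0.08 (SE 0.10, interval -0.28 to 0.13) for SUS and -0.11 (SE 0.11, interval -0.33 to 0.11) for RES. The intervals of these 3 abundant genes lay between -0.33 and 0.27 log2 units.

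The memory and effector genes were scattered between libraries in every group. Cd44 was at 56.43 to 110.6 CPM with a median of 71.11 in CON, 51.36 to 120.8 with a median of 82.13 in SUS, and 83.55, 68.04, 96.35, 92.04 and 113.6 in RES libraries. The groups overlapped, with log2 fold changes of 0.11 (SE 0.19, interval -0.28 to 0.51) for SUS and 0.28 (SE 0.20, interval -0.13 to 0.69) for RES. Tbx21 was at 12.94 to 13.9 CPM in 5 CON libraries and 39.78 in library 68, at 5.731 to 33.91 with a median of 24.3 in SUS, and at 11.82, 7.979, 31.63, 21.58 and 41.62 in RES libraries. Its fold changes were 0.26 (SE 0.48, interval -0.77 to 1.28) for SUS and 0.37 (SE 0.50, interval -0.70 to 1.44) for RES, and 0.66 for SUS without library 68. That CON library also had the highest NK marker sum of its group, 56.17 CPM, and the NK sums of SUS and RES T cells spanned 3.805 to 73.08 and 13.55 to 50.58. The part of NK cells in the Tbx21 level was not tested.

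The regulatory genes Foxp3 and Ctla4 were at a higher level in most stressed T cell libraries, but neither passed the adjusted test. Foxp3 was at 17.96 to 41.18 CPM with a median of 25.01 in CON, 28.82 to 72.76 with a median of 39.97 in SUS, and 43.55, 38.27, 42.47, 27.84 and 60.21 in RES libraries. All 6 SUS and all 5 RES libraries lay above the CON median, and 3 of 6 and 3 of 5 lay above every CON library. The log2 fold change was 0.79 (SE 0.26, interval 0.25 to 1.32, edgeR adjusted p = 0.533) for SUS and 0.65 (SE 0.27, interval 0.09 to 1.21, adjusted p = 1.0) for RES. Ctla4, the costimulation blocker, was at 1.294 to 5.359 CPM with a median of 2.06 in CON, 3.227 to 7.599 with a median of 5.435 in SUS, and 5.197, 6.415, 4.508, 4.208 and 8.364 in RES libraries, from 113 to 281 reads in SUS and 148 to 320 in RES. All stressed libraries again lay above the CON median, with 3 of 6 SUS and 2 of 5 RES libraries above every control. Its log2 fold change was 1.05 (SE 0.35, interval 0.33 to 1.78, adjusted p = 0.533) for SUS and 1.12 (SE 0.37, interval 0.37 to 1.87, adjusted p = 0.829) for RES.

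Ikzf2 and Pdcd1 had intervals that crossed 0 in both stressed groups. Ikzf2, the Helios gene, was at 29.96 to 49.51 CPM with a median of 36 in CON, 19.62 to 117.1 with a median of 48.16 in SUS, and 62.14, 71.31, 36.74, 57.78 and 51.41 in RES libraries. Of the SUS libraries 3 lay above and 1 below every control, and 4 of 5 RES libraries lay above. The log2 fold change was 0.67 (SE 0.35, interval -0.08 to 1.43) for SUS and 0.55 (SE 0.37, interval -0.23 to 1.34) for RES. Pdcd1 was at 2.233 to 7.339 CPM with a median of 3.331 in CON, 2.069 to 5.991 with a median of 3.815 in SUS, and 3.865, 3.648, 2.734, 0.5687 and 7.299 in RES libraries. The groups overlapped almost fully, at 0.02 (SE 0.43, interval -0.86 to 0.90) for SUS and -0.08 (SE 0.45, interval -1.01 to 0.84) for RES.

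**Figure D2:**
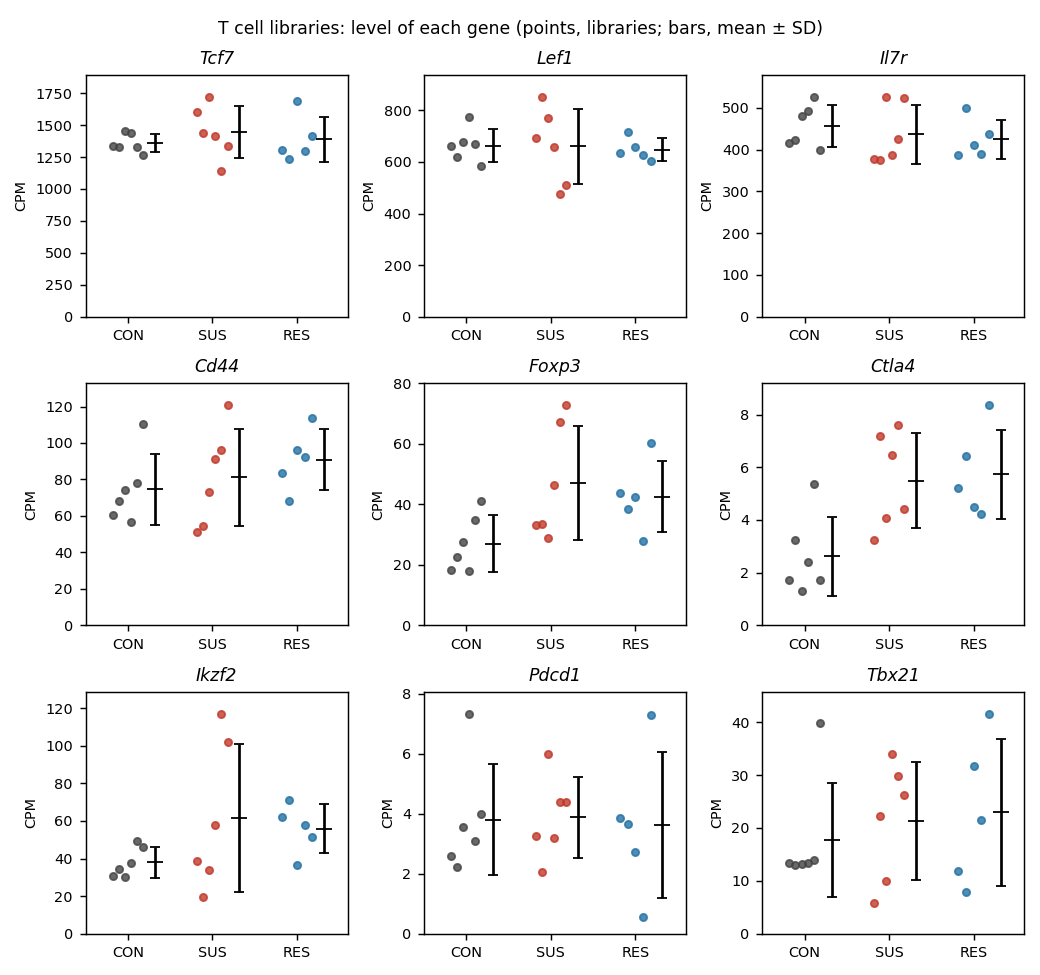
TMM-normalised CPM of each member in T cells by stress group, with each point a library and the horizontal bar and whiskers the mean and SD. Foxp3 and Ctla4 points of all SUS and RES libraries lie above the CON median, Tcf7, Lef1 and Il7r overlap between groups, and a single CON library of Tbx21 stands at 39.78 CPM.

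No member was called in any T cell comparison. Over all 18860 genes tested in T cells, 0.0265% were called in SUS against CON, and 0% in RES against CON and in SUS against RES. At an unadjusted p under 0.05, 2 of the 9 members, Foxp3 and Ctla4, were higher in each stressed group, where 2.76% of all genes were higher in SUS and 2.40% in RES. The 2 comparisons share the CON libraries, so the second is no repeat of the first. Between SUS and RES mice the differences of all 9 members were from -0.17 to 0.13 log2 units, with an interval of -0.42 to 0.69 for Foxp3, -0.82 to 0.68 for Ctla4, -0.67 to 0.91 for Ikzf2 and -0.58 to 0.24 for Cd44. The intervals for Tcf7, Lef1 and Il7r were narrower and lay between -0.22 and 0.27.

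**Figure D3:**
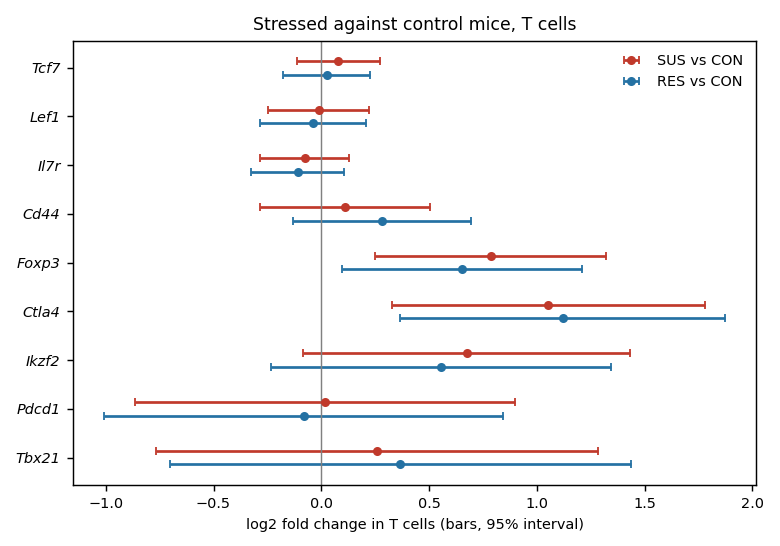
Log2 fold changes of the members in T cells for SUS against CON and RES against CON, with bars for the 95% interval of the edgeR estimate. The intervals of Foxp3 and Ctla4 lie above 0 in both comparisons before adjustment over all genes, and the other 7 members have intervals that cross 0.

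Transcripts of cycling cells and of red cells also stood higher in stressed T cell libraries. In the T cell fraction, 4 proliferation genes (Mki67, Top2a, Birc5 and Ccnb1) summed to 38.44 to 74.2 CPM in CON, 60.62 to 334 in SUS and 101.1 to 133.8 in RES libraries, with 3 of 4 at an unadjusted p under 0.05 in each comparison and none called. The 6 red cell genes, led by the haemoglobin chains, summed to 887.9 to 2834 CPM in CON, 1645 to 4496 in SUS and 1683 to 4646 in RES libraries. The red cell covariate was the mean log2 level of these 6 genes. With it in the fit, the log2 differences of SUS mice were 0.80 for Foxp3 and 0.87 for Ctla4. Those of RES mice were 0.66 and 0.98. The T cell marker sums overlapped between the groups, at 2395 to 2833 CPM in CON, 2096 to 2863 in SUS and 2235 to 3087 in RES libraries. The part of cycling cells in the Foxp3 and Ctla4 values was not tested.

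Of the other genes of these pathways, 92 in 5 lists, only Il2ra was called in T cells. Il2ra encodes CD25, the high-affinity IL-2 receptor chain of regulatory and activated T cells. Its level was 12.43 to 20.01 CPM with a median of 16.25 in CON, 20.36 to 58.5 with a median of 36.13 in SUS, and 40.96, 37.41, 16.43, 24.99 and 39.02 in RES libraries. All 6 SUS libraries lay above every CON library, as did 4 of 5 RES libraries. How many of all genes separate as fully was not counted. Il2ra rose in SUS mice by 1.24 log2 units (SE 0.23, edgeR adjusted p = 0.0312), and its difference in RES mice was 0.97 (SE 0.24, adjusted p = 0.595). SUS and RES mice differed by 0.28 (SE 0.24, adjusted p = 1.0), so no difference between the stressed groups was shown. The call in SUS was lost with the red cell covariate (1.29, adjusted p = 0.355), with all genes kept regardless of low counts (1.25, adjusted p = 0.0715), and with libraries 52 and 70 kept (1.25, adjusted p = 1.0). It was also lost without any single one of libraries 53, 56, 59, 62, 63, 65 and 66, at adjusted p from 0.0704 to 0.155, although the fold change remained 1.09 or more.

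The regulatory list held no further call, and most of its fold changes were above 0. It held 20 genes besides the members, and 19 were tested. In SUS T cells 16 of 19 had a fold change above 0, with a median of 0.47 and a range of -1.99 to 1.49, against a median of -0.00 over all genes tested. In RES T cells 15 of 19 were above 0, with a median of 0.56 and a range of -1.20 to 1.68, against 0.00 over all genes. With the red cell covariate this median was 0.31. Of the 19 genes, 8 had an unadjusted p under 0.05 in each comparison, where 906 and 775 of the 18860 genes did. Marker lists of other cells also had fold changes above 0 in these libraries: 5 of 6 monocyte genes with a median of 0.60 in SUS and 0.54 in RES, 3 of 3 gamma-delta T cell genes with 0.97 and 0.73, and 5 of 5 platelet genes with 0.73 in SUS but 2 of 5 with -0.06 in RES. Their summed levels in CON, SUS and RES T cells were 117.8 to 300.5, 136 to 520.8 and 166.4 to 410.6 CPM for the monocyte list and 11.47 to 22.59, 11.34 to 62.94 and 10.04 to 38.9 CPM for the gamma-delta list. Their part in the regulatory values was not tested. The regulatory genes with the highest CPM in CON T cells, a scale that does not correct for length, were Itgae, the CD103 integrin chain, at 112.6 CPM, Tgfb1, the cytokine TGF-beta, at 89.8, Nt5e, the ectonucleotidase CD73, at 65.3, and Izumo1r, a folate receptor family member of regulatory cells, at 25.4.

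**Figure D4:**
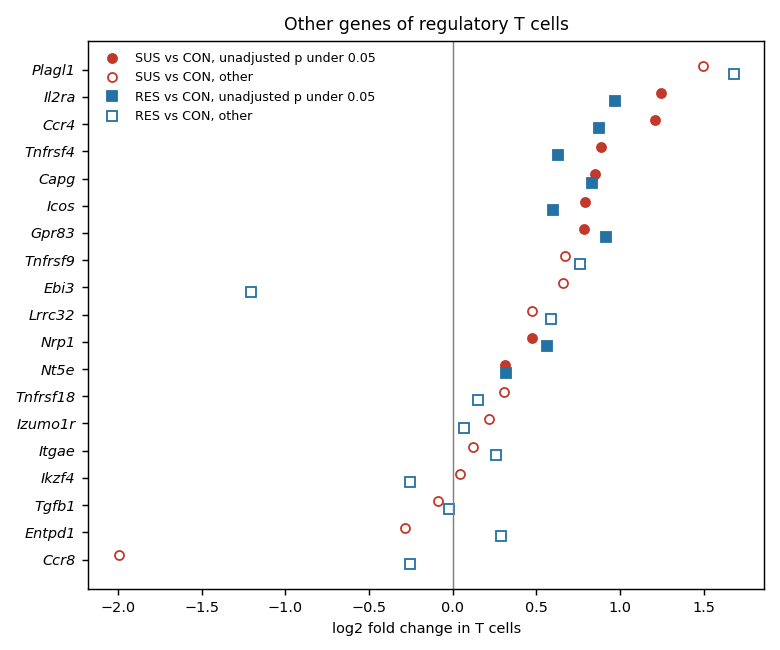
Log2 fold changes in T cells of the 19 tested genes of the regulatory list for SUS mice (circles) and RES mice (squares) against CON mice, with filled symbols at an unadjusted p under 0.05. In SUS mice 16 of 19 points and in RES mice 15 of 19 points lie to the right of 0, and only Il2ra in SUS mice was called after adjustment.

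The remaining lists held no call in T cells. Of 15 naive and quiescence genes, 5 had a fold change above 0 in SUS and 6 in RES, with a median of -0.06 in both. Among those with the highest CPM in CON mice, again without correction for length, were Satb1, a chromatin organiser, at 755.9 ± 53.2 CPM, S1pr1, the receptor for exit from lymph nodes, at 557.2, and Igfbp4 at 481.5. Of 20 memory and effector genes, 12 were above 0 in SUS and 11 in RES, with medians of 0.04 and 0.10. Those with the highest CPM were the integrin chains Itga4 at 554.3 CPM and Itgb1 at 217.4, the IL-2 and IL-15 receptor chain Il2rb at 248.3, and the chemokine Ccl5 at 161.1 ± 158, whose SD was close to its mean. Of 15 checkpoint and exhaustion genes, 11 were above 0 in SUS and 9 in RES, with medians of 0.18 and 0.12. The highest CPM were those of Slamf6 at 156.4 CPM, Btla at 62.3, Tox at 45.4 and Cxcr5 at 20.5. Of 20 tested signalling partners and ligands, 10 were above 0 in SUS and 8 in RES, with medians of -0.02 and -0.01. The highest CPM were those of Jak1, the kinase of the IL-7 and IL-2 receptors, at 962.1 CPM, Ikzf1 at 516, Tle3, a corepressor of TCF-1 and LEF-1, at 231.7, and Ikzf3 at 183.3.

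Outside T cells no member was called under stress. In B cells, where 0.00568% of 17620 genes were called in SUS against CON and 0% in the other comparisons, 6 members were tested. Tbx21 was at 1.28 ± 0.857 CPM (SD, n = 6) in CON, 3.24 ± 2.02 (SD, n = 6) in SUS and 3.38 ± 1.80 (SD, n = 5) in RES B cells, with log2 fold changes of 1.34 (SE 0.66) and 1.40 (SE 0.68), neither called. The NK marker sum of the B cell libraries was 1.402 to 4.042 CPM in CON, 10.96 to 29.79 in SUS and 3.546 to 20.63 in RES, and its part in these Tbx21 values was not tested. Cd44 in B cells was at 71.3, 72.2 and 71.4 CPM in CON, SUS and RES mice, with log2 fold changes of 0.03 (interval -0.22 to 0.27) for SUS and 0.01 (interval -0.25 to 0.26) for RES.

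Ly6Chigh monocytes had the largest share of genes called under stress among the sorted cells, with 3.45% of 16955 genes called in SUS mice, 0.997% in RES mice and 0% between SUS and RES mice. Cd44 was at 848 ± 84.9 CPM in CON, 1001 ± 114 in SUS and 925 ± 65.1 in RES Ly6Chigh monocytes (SD, n = 6 each), with a log2 fold change of 0.21 (SE 0.10, edgeR adjusted p = 0.212) in SUS. Foxp3 was at 1.542 to 7.607 CPM with a median of 2.91 in CON, 0 to 1.229 in SUS, and 0 to 2.96 in RES libraries. The SUS libraries lay below every CON library, with 2 of them at 0. How many of all genes separate as fully was not counted. In this comparison 4498 of 16955 genes had an unadjusted edgeR p under 0.05. The fold change of Foxp3 was -2.32 (SE 1.03, interval -4.43 to -0.20, adjusted p = 0.146) in SUS and -1.48 (SE 1.00, adjusted p = 0.419) in RES. DESeq2 called Foxp3 in SUS at -2.38 (adjusted p = 0.0421), whereas it was -0.47 with the red cell covariate and -1.92 without library 13. Cd3e was at most 0.111 CPM in any Ly6Chigh library. The 8 T cell markers together summed to 3.356 to 6.577 CPM in CON, 0.8135 to 7.016 in SUS and 0.9434 to 5.689 in RES libraries. The part of T cell transcripts in these Foxp3 values was not tested. The 6 red cell genes were all called higher in Ly6Chigh cells of SUS mice.

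Among the other pathway genes, 6 were called in Ly6Chigh monocytes of SUS mice, of which 5 are described here, and Jak3 in RES mice too. Tested were 11 naive and quiescence, 17 memory and effector, 11 regulatory, 10 checkpoint and exhaustion, and 18 partner and ligand genes. Of all genes tested, 3.45% were called in SUS and 0.997% in RES mice. Jak3, the kinase of cytokine receptors that use the common gamma chain, was at 16.6 ± 7.33 CPM (SD, n = 6) in CON Ly6Chigh monocytes and rose by 1.45 log2 units in SUS mice (SE 0.30, edgeR adjusted p = 0.00353) and by 1.12 in RES mice (SE 0.30, adjusted p = 0.0333). Il18rap, a chain of the IL-18 receptor, rose by 1.56 (SE 0.41) in SUS mice. Bcl2, the survival factor, fell by 1.47 (SE 0.45), Cd160, a receptor of cytotoxic lymphocytes, by 2.07 (SE 0.56), and Ikzf3, the lymphocyte factor Aiolos, by 2.61 (SE 0.62). These 3 genes were at 9.77 ± 3.43, 6.07 ± 1.95 and 7.21 ± 3.22 CPM (SD, n = 6) in CON Ly6Chigh monocytes, against 173 ± 41.4, 10.0 ± 2.86 and 183 ± 46.8 CPM in CON T cells. Lymphocyte marker sums also had lower means in SUS than in CON Ly6Chigh libraries, with 5.90 against 13.0 CPM for the NK list, 8.04 against 13.1 for the B cell list and 3.00 against 5.06 for the T cell list. The ranges overlapped. The median log2 fold change was -1.46 over 5 NK genes, with 1 above 0, -0.50 over 3 tested B cell genes, with 1 above 0, and -0.84 over 4 tested T cell genes, with 0 above 0, and no gene of these lists was called. The part of lymphocyte transcripts in these values was not tested. The summed level of the 6 red cell genes was 342.8 to 1215 CPM in CON, 1097 to 8988 in SUS and 1077 to 4348 in RES Ly6Chigh libraries. With the mean log2 level of these red cell genes as a covariate, these calls were lost, at edgeR adjusted p of 0.690 to 0.998. The SUS values were 0.73 for Jak3, 1.19 for Il18rap, -0.97 for Bcl2, -1.19 for Cd160 and -1.59 for Ikzf3. The RES value of Jak3 was 0.56. The red cell ranges of control and stressed libraries barely overlapped, so this fit cannot tell red cell level and stress group apart. Some calls also turned on single libraries: Bcl2 was lost without library 2, 4, 7, 8, 10, 14, 16 or 17 (-1.52 to -1.30), Cd160 without 16 (-1.83), and Jak3 in RES mice without 1, 4, 7, 9, 10, 15, 16 or 18 (0.96 to 1.19). The calls of Jak3, Il18rap and Ikzf3 in SUS mice were kept without any single library.

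In Ly6Clow monocytes, where 0.0871% of 19521 genes were called in SUS, 0.0154% in RES and 0% between SUS and RES mice, 8 members were tested and none was called. Tbx21 was at 15.23 to 64.78 CPM with a median of 32.24 in SUS and 34.24 to 96.89 with a median of 49.27 in RES libraries, beside the 4 CON libraries given above. The RES range lay higher but overlapped, with a log2 fold change of 0.88 (SE 0.46, interval -0.11 to 1.86, edgeR adjusted p = 0.592) and of 0.33 (SE 0.45, interval -0.64 to 1.29) for SUS. The NK marker sums were 302.3 to 805.8 CPM in SUS and 430.4 to 1126 in RES Ly6Clow libraries, and library 26 held both the highest Tbx21 level and the highest NK sum. Foxp3 was at 3.76 ± 0.899 CPM (SD, n = 4) in CON, 3.14 ± 0.764 (SD, n = 6) in SUS and 2.75 ± 0.860 (SD, n = 6) in RES Ly6Clow libraries, and Cd44 had fold changes of -0.02 (interval -0.22 to 0.17) and -0.04 (interval -0.23 to 0.16).

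Whether stress acted differently on a member in T cells than in another cell type was tested as the difference of the fold changes, and no member was called in any of the 6 tests. With libraries 52 and 70 kept, Tcf7, Il7r and Ikzf2 were called in the RES test of T against B cells. The share of all 24248 genes called was 0.0907% for SUS and 0.0206% for RES in T cells against B cells, 1.58% and 0.536% against Ly6Chigh monocytes, and 0.00412% for each against Ly6Clow monocytes. Foxp3 came nearest, with a fold change 3.04 log2 units larger in T cells than in Ly6Chigh monocytes for SUS mice (SE 0.94, interval 1.16 to 4.92, edgeR adjusted p = 0.0555) and 2.13 for RES mice (SE 0.94, adjusted p = 0.214). Ikzf2 differed by 2.11 (SE 0.97, adjusted p = 0.216) for SUS mice in the same test. For Foxp3 in SUS mice, the separate fits gave 0.79 in T cells and -2.32 in Ly6Chigh monocytes. Most of the Foxp3 difference thus lay on the monocyte side. Foxp3 was low there, at 0 to 7.607 CPM over all Ly6Chigh libraries, with 2 SUS libraries at 0. The monocyte fold change was also smaller in size with the red cell covariate, as given above. The interaction of Ctla4 with Ly6Chigh monocytes rests on 44 reads in a single SUS library and is not read here.

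Within T cells, 2 of 6 pairs of members varied together from library to library by Pearson's r. Levels were taken as log2 of CPM plus 0.5 after each group's mean was subtracted, over the 17 libraries with the 6 pairs chosen by role. Cd44 and Tbx21, the memory and effector genes, varied together most, with Pearson r = 0.767 (permutation p = 0.00145, adjusted over the 6 pairs 0.0087) and Spearman rho = 0.782 (permutation p = 0.00142, adjusted 0.00852). Within CON, SUS and RES libraries r was 0.867, 0.68 and 0.965, and without the 2 libraries farthest from the median of Cd44 it was 0.729. Without library 68, which has the highest Tbx21 of the controls, r was 0.709 and its adjusted permutation p was 0.0796.

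Foxp3 and Ikzf2, both regulatory cell factors, had r = 0.648 (permutation p = 0.014, adjusted 0.0419) and rho = 0.623 (permutation p = 0.0208, adjusted 0.0416). Within groups r was 0.698 in CON, 0.909 in SUS and -0.25 in the 5 RES libraries, a difference that was not tested, and r was 0.537 without the 2 farthest libraries. Its adjusted permutation p was above 0.05 without any single one of libraries 53, 54, 60, 63, 65, 66, 68 and 69, from 0.0651 to 0.107. Tcf7 and Lef1, the naive cell factors, had r = 0.592 (permutation p = 0.0423, adjusted 0.0845) and rho = 0.627 (permutation p = 0.0156, adjusted 0.0416), with 0.806, 0.777 and -0.197 within CON, SUS and RES libraries and 0.491 without the 2 farthest. Their adjusted p was under 0.05 without library 57 (r = 0.688) or 58 (r = 0.693).

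The remaining 3 pairs did not pass this test. Foxp3 and Ctla4, the members that differed most between stressed and control mice, had r = 0.332 (permutation p = 0.232, adjusted 0.348) and rho = 0.324 (permutation p = 0.235, adjusted 0.353), with 0.387 without the 2 farthest libraries and 0.158, 0.346 and 0.785 within CON, SUS and RES. Tcf7 and Cd44 had r = -0.299 (permutation p = 0.332, adjusted 0.398) and rho = -0.284 (permutation p = 0.318, adjusted 0.382), with -0.321 without the 2 farthest and -0.612, -0.58 and 0.578 within the groups. Lef1 and Il7r had r = -0.00194 (permutation p = 0.995, adjusted 0.995) and rho = 0.027 (permutation p = 0.933, adjusted 0.933), with 0.188 without the 2 farthest and 0.704, -0.308 and 0.666 within the groups.

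**Figure D5:**
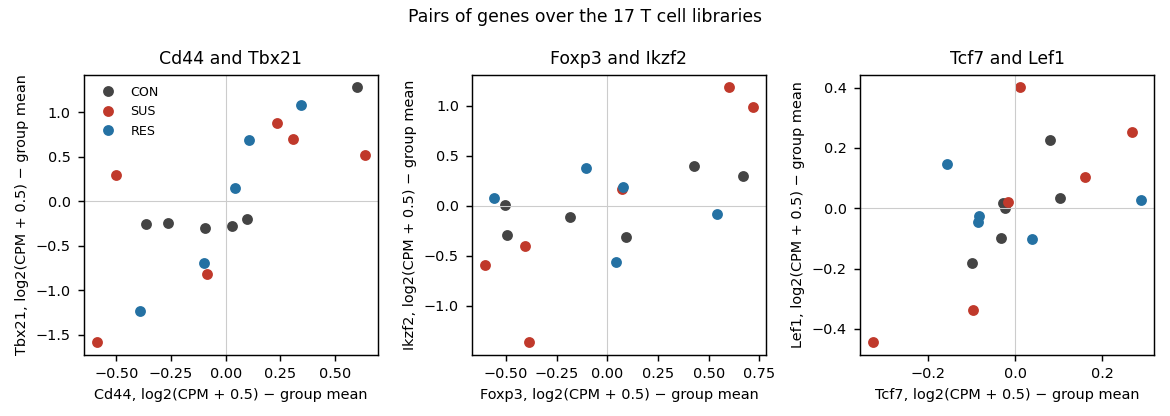
Levels of 3 pairs of members in the 17 T cell libraries, as log2 of CPM plus 0.5 minus the mean of the library's group, with each point a library of CON, SUS or RES mice. Cd44 and Tbx21 rise together in all groups (r = 0.767), and the r of Foxp3 with Ikzf2 is 0.648 and that of Tcf7 with Lef1 0.592 over all 17 libraries.

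The genes whose levels over the 17 T cell libraries were most like each member, of 9812 genes with a mean of at least 5 CPM, are given as a description, and the libraries share group differences. Tcf7 was nearest to Ppp2r1a (r = 0.92), a phosphatase scaffold, to Ccr7 (0.866), the receptor that brings naive cells into lymph nodes, and to Grk6 (0.861). Lef1 was nearest to Gm14303 (0.824), Wdr89 (0.812) and Rpl9-ps7 (0.811), of which the first and the last are annotated as processed pseudogenes with uncertain counts. Il7r had no close neighbour above 0.752, the value of Chrnb1, followed by Bbx (0.741) and 9330162G02Rik (0.74).

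Cd44 was nearest to Itgb1 (0.94), an integrin chain high on memory cells, Ahnak (0.927) and Ttc39c (0.901), and Tbx21 to Ccdc88b (0.943), Efhd2 (0.906) and Gzma (0.869), the cytotoxic granule protease that is also an NK marker. Foxp3 was nearest to Maf (0.888) and Rora (0.885), transcription factors of effector T cells, and to Atp2b4 (0.883), a calcium pump, and Ikzf2 to Atp2b1 (0.904), another calcium pump, C920009B18Rik (0.875) and Pmel (0.867). The neighbours of the low-count members were Cldnd2 (0.838), Ddr1 (0.781) and 5730455P16Rik (0.766) for Ctla4, and for Pdcd1 they included Trpm4 (0.781) and BC106179 (0.77).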

How the data were processed

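Blood leukocytes of CON, SUS and RES mice were sorted into 4 cell types and sequenced as stranded total RNA. According to the methods and the submitters' processing notes, the authors aligned the paired reads to mm10 with HISAT2, counted them per Ensembl gene with HTSeq and used DESeq2. The deposited values are raw counts of reads per gene, 1 column per library. The strand option and the handling of multimapping or duplicate reads are not given in the sources used here.

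From these counts, genes were named by GENCODE M21 (52489 of 52636 identifiers matched), and edgeR 4.0.16 in R 4.3.3 was run with its low-count filter, TMM scaling and robust quasi-likelihood tests, with Benjamini-Hochberg adjustment over all genes tested. Stress contrasts used a fit per cell type over its 3 groups, and cell type contrasts in CON mice and interactions used 12 group means over 68 libraries. Calls needed an adjusted p under 0.05 with a log2 fold change beyond 1 either way, and intervals of 95% used the fit's SE and degrees of freedom. Correlations used Python 3.11.15 with 100000 permutations within groups. Intervals of count ratios and floors cover counting error only. Total counts of T cell libraries were 27257572 to 46923129.

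The text names the 9 members, other pathway genes that were called in a stress contrast, up to 4 genes of a list with the highest CPM in CON T cells, marker genes used to check a label, and the 3 genes most like each member, apart from a few genes that are not reported here. Members and lists were chosen with earlier results of these data known. Libraries 52 and 70 were left out because their markers went against their labels. Alternatives were DESeq2 1.42.0, its size factors, other low-count filters, a red cell covariate, fewer groups, all 70 libraries, and fits without each single library. Alternatives for Il2ra, the regulatory median, the Ly6Chigh calls and the correlations without single libraries were added after seeing the data. Scripts were tested on simulated counts. Replicates are libraries, since no label names a mouse or culture.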

Additional observations from a re-analysis of the deposited data

Results flagged for a closer look

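In 68 sets of levels, each a member in a cell type and group, 8 had a library that stood apart from the others by Dixon's 95% criterion. Normally distributed values meet it in about 1 set in 20. The levels were CPM without a log transform, and all 8 libraries stood on the high side, so their number cannot be set against that rate. In T cells these were Tbx21 in CON library 68, at 39.78 CPM against a median of 13.35 in the other libraries of its group, and Pdcd1 in CON library 62, at 7.339 against 3.106. In Ly6Chigh monocytes they were Foxp3 in CON library 13, at 7.607 against 2.459, Tcf7 in RES library 3, at 3.635 against 1.067, and Cd44 in RES library 6, at 1050 against 905. In Ly6Clow monocytes they were Lef1 in RES library 26, at 27.5 against 8.395, and Ikzf2 in SUS library 22, at 12.96 against 3.984. In B cells Lef1 in RES library 43 was at 14.73 against 8.15.

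Library 52, labelled B cells of a RES mouse and used in no comparison, held more of all 9 members than any B cell library used. Its levels were 1175 CPM of Tcf7, 505.3 of Lef1, 411.9 of Il7r, 106.2 of Cd44, 63.94 of Foxp3, 75.36 of Ikzf2, 60.56 of Tbx21, 3.459 of Ctla4 and 3.261 of Pdcd1. The highest values in the B cell libraries used, on the same scaling, were 5.706, 14.98, 2.919, 87.25, 3.561, 1.132, 5.621, 0.3791 and 0.6007 CPM in that order.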

How the results depend on the processing

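No paired analysis was possible because the library numbers in the labels are unique and no groups share them. No member was called in T cells under any of the alternatives run. In T cells of SUS against CON mice, 5 genes were called, against 63 with DESeq2, 10 without the low-count filter, 9 with at least 10 counts in every library, 8 by adjusted p alone, and 0 with libraries 52 and 70 kept or with the red cell covariate. Leaving out 1 library gave 4 to 21 (21 without library 60, 9 without 57, 10 without 68 and 10 without 69). In RES against CON mice 0 genes were called, against 6 with DESeq2 and 4 with only 2 groups fitted, and 0 to 1 with 1 library left out, and in SUS against RES mice 0, against 2 with DESeq2. DESeq2 called 1 member, Foxp3, in Ly6Chigh monocytes of SUS mice. With libraries 52 and 70 kept, members called were 3 between B cells and Ly6Clow monocytes, 2 between the monocyte fractions, and 3 in the RES interaction of T and B cells. The causes were not tested.

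Of 1623 values under alternatives, for members and other named genes, 1548 kept direction and side of the threshold, 48 lost a call and 1 gained a call. A further 25 turned sign, with 0 of these 25 called in the report. Values that were not called and stayed so count among those kept. In SUS T cells Lef1 became 0.000266 with at least 10 counts in every library and Pdcd1 -0.0548 with the red cell covariate. In RES T cells Tcf7 became -0.238 with libraries 52 and 70 kept and -0.0071 with the red cell covariate. Ctla4 in SUS against RES became 0.205 with those libraries kept. Leaving out 1 library moved SUS values over -0.103 to 0.0690 for Lef1, -0.0298 to 0.250 for Cd44 and -0.149 to 0.324 for Pdcd1. RES values moved over -0.0501 to 0.0622 for Tcf7, -0.0781 to 0.0167 for Lef1 and -0.497 to 0.224 for Pdcd1. SUS against RES values moved over -0.0257 to 0.291 for Foxp3 and -0.175 to 0.105 for Ctla4, and T against B cell values of Cd44 in CON mice over -0.0803 to 0.134. With library 70 kept, r was 0.848 for Foxp3 and Ctla4, 0.992 for Tcf7 and Lef1, 0.187 for Tcf7 and Cd44 and 0.984 for Lef1 and Il7r. Leaving out 1 library gave r of 0.232 to 0.466 for Foxp3 and Ctla4, 0.563 to 0.704 for Foxp3 and Ikzf2, 0.374 to 0.693 for Tcf7 and Lef1, -0.426 to -0.196 for Tcf7 and Cd44, -0.185 to 0.244 for Lef1 and Il7r and 0.697 to 0.877 for Cd44 and Tbx21. The regulatory list median in RES T cells was 0.31 with the red cell covariate. Ctla4 and Pdcd1 rest on few reads outside T cells, and Ikzf2 on few in B cells, which limits what their comparisons can show.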
